A study of Homo sapiens with 6 samples.

Results

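Expressed pseudogenes of the cytosolic ribosomal protein genes were measured in poly(A) RNA of RKO cells, an established human colorectal cancer line. A gene was taken as a member where its symbol has the form of a ribosomal protein gene name followed by P and a number (RPL15P3, RPS2P46, RPSAP52) and where it reached at least 1 FPKM (a level of sequenced fragments corrected for transcript length and library depth) in at least 3 of the 6 libraries. Of 1565 genes with such a name, 97 met this rule, in a deposited table of 63563 genes. The deposited symbol column is blank for 37929 genes and by itself yields 5 members of 15 such names. The names of the other 92 were filled in from the gene IDs, 91 by a table of gene names and 1 by GENCODE 29. The members were thus chosen by their name and their FPKM in these libraries, so their being expressed is no result.

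The study introduced Cx43, the gap junction protein encoded by GJA1, into RKO cells. The OVER43 group (3 libraries) was stably transfected with the vector pcDNA3.1 carrying the Cx43 cDNA, and the EV group (3 libraries) with the empty vector, so both groups had been through transfection and hold the vector. The labels give the EV genotype as WT and do not say whether a group is 1 clone or a pool of clones, or whether its libraries came from separate cultures. The p-values below therefore measure only the spread between these libraries. The comparison of OVER43 with EV asks which transcripts differ when Cx43 is overexpressed.

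Most ribosomal protein pseudogenes are processed copies. An mRNA was reverse transcribed and inserted elsewhere in the genome without its introns, and often without a promoter of its own. They are numerous because ribosomal protein mRNAs are abundant and short, and transcription of a copy usually depends on the place where it landed. Reads from a young copy can be shared with the parent mRNA, so a value assigned to such a gene depends on how the authors' software placed those reads.

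Among the libraries labelled OVER43, GJA1 read 23.2, 26.0 and 24.9 FPKM, against 0.30, 0.351 and 0.394 FPKM in those labelled EV, a log2 fold change of 4.25 with SE 0.081 and limma adjusted p = 3.22e-08. Low FPKM values stepped by the worth of 1 fragment, and these steps placed the libraries at 46.2 to 49.5 M fragments in OVER43 and 42.1 to 52.6 M in EV, where 1 FPKM in a gene of 600 bases is worth 16 to 19.5 fragments. Of 7 colorectal epithelial markers 4 passed the expression filter (EPCAM, KRT8, KRT18 and CDX2), KRT20 was listed at 0 and VIL1 and CDH1 stood at 0.378 FPKM or less. EPCAM and KRT18 rose (KRT18 148 ± 0.989 FPKM in OVER43, against 79.4 ± 3.68 FPKM in EV), KRT8 fell (24.6 ± 1.63 FPKM in OVER43, against 58.7 ± 1.92 FPKM in EV) and CDX2 did not pass the test, by limma with adjusted p under 0.05. Values with ± here and below are means with SD over the 3 libraries of a group. The summed level of the 7, in which KRT18 is the largest term, was 198 to 203 FPKM in OVER43 and 156 to 163 FPKM in EV. The 5 fibroblast markers summed to 0.185 to 0.371 FPKM in OVER43 and 0.338 to 0.893 FPKM in EV, and the 3 endothelial markers to 0.252 to 0.388 FPKM in OVER43 and 0.0862 to 0.134 FPKM in EV. Of 4 leukocyte markers PTPRC, CD3E and CD79A were listed at 0 in all 6 libraries and CD68 stood at 368 to 387 FPKM in OVER43, against 405 to 421 FPKM in EV. In bulk RNA, fewer cells of a type and less RNA per cell cannot be told apart.

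The sequences below show how close the copies are to their parents. Each is given 5′ to 3′ on the transcribed strand, from GENCODE 29 on GRCh38, beside the same stretch of the parent's coding sequence. Capitals mark the bases at which the 2 differ, and positions are counted from 1 at the first base of the parent's coding sequence. RPL39P3 on chromosome 6, the minus strand of chr6:73373108-73373263, is shown because it was listed at 0 in 1 group while its whole annotated length of 156 bases equals the coding sequence of RPL39, a subunit at the exit tunnel of the ribosome:

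RPL39P3: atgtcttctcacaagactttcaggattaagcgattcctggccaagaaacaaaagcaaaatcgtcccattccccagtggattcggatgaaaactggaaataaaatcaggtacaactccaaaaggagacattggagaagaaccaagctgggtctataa

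RPL39: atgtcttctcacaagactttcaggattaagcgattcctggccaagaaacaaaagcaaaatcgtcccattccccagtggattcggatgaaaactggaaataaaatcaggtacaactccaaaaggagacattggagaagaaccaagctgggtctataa

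RPL15P3, the largest gain among members detected in both groups, differs from the coding sequence of RPL15, a large subunit protein, by C317T, A342G and C534T over 615 bases. The plus strand of chr6:12514404-12514643 holds all 3, with parent positions 295 to 534:

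RPL15P3: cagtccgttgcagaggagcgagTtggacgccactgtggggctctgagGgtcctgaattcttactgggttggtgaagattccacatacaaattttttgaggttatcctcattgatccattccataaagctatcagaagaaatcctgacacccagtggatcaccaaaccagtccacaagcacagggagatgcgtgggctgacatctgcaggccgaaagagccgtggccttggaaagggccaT

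RPL15: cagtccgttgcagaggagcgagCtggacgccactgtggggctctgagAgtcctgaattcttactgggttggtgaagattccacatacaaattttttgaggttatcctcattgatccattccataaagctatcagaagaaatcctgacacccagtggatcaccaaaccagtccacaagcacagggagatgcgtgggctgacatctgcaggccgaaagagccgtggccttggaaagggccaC

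RPS2P46 had the highest level of the 97. The minus strand of chr17:19446716-19446835 corresponds to positions 18 to 137 of RPS2, a small subunit protein, and holds 4 differences:

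RPS2P46: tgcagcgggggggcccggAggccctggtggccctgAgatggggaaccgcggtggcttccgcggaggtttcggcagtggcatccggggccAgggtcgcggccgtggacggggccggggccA

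RPS2: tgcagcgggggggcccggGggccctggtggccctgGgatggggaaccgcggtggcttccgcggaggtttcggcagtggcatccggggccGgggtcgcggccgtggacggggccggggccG

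RPL7AP6 and RPS18P5 are shown because their parents are listed near 0. RPL7AP6, on the minus strand of chr14:69885660-69885779, has 6 differences from positions 362 to 481 of RPL7A, and RPS18P5, on the minus strand of chr3:101576765-101576884, has 3 from positions 64 to 183 of RPS18:

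RPL7AP6: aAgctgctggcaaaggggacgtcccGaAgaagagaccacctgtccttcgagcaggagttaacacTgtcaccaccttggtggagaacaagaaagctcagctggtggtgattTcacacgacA

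RPL7A: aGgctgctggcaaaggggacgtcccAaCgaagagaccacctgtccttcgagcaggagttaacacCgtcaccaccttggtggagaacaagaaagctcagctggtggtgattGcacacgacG

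RPS18P5: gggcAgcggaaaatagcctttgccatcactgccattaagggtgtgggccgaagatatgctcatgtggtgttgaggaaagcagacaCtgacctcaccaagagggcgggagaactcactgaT

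RPS18: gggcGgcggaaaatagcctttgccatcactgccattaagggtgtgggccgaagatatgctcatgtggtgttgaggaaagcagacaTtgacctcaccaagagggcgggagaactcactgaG

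RPL13P12 is shown as the member with the second highest level among those that fell. The minus strand of chr17:17383782-17383901 differs at 4 bases from positions 112 to 231 of RPL13:

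RPL13P12: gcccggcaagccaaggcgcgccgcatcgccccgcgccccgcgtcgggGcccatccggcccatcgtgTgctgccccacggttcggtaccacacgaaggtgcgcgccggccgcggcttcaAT

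RPL13: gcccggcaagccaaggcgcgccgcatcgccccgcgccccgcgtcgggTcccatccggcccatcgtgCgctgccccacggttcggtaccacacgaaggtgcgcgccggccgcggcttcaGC

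Where they aligned, most of the 97 pseudogenes were close to their parents. The median identity of the aligned stretch of a member's transcript to the parent's mRNA was 97.3% (range 72.1% to 100%), with 23 members at 99% or more and 17 under 90%. In 4 members (RPL23AP7, RPL23AP82, RPL32P3 and RPS18P9) the aligned stretch covers under 50% of the annotated transcript, as in RPL32P3, where it is 102 columns beside a transcript of 2816 bases. Of the members 86 are annotated as processed pseudogenes, 8 as transcribed processed, 2 as transcribed unprocessed and 1, RPS27AP5, as protein-coding. The parent's reading frame was open to its stop codon in 26 members and interrupted in 26, and in the remaining 45 the start or end of the coding sequence did not align. In 5 members (RPL21P16, RPL36AP37, RPL39P3, RPL41P1 and RPS28P7) every stretch of 75 bases also occurs in the parent's transcripts, and in 23 none does. In 9 members no stretch of 75 bases is found in that gene alone.

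By subunit, 66 members derive from large and 31 from small subunit genes, from 52 parent genes in all. A parent had 1 member in 25 cases and at most 5 (RPL23A and RPL32). Of the large subunit copies 5 rose and 10 fell in OVER43, and of the small subunit copies 3 rose and 4 fell, which is 22.7% and 22.6% of them, against 45.9% called of all genes tested (28.4% higher and 17.5% lower). RPL39P3 is among the 5, and it could pass the expression filter only by differing between the groups. Inside a protein-coding host gene lay 49 members, 36 of them within introns only, and in the deposited loci 54 members share their locus with other genes while 43 stand alone. Genes that share a deposited locus need not overlap the member.

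Levels ran over a wide range. The mean over the 6 libraries had a median of 3.85 FPKM and ran between 0.886 and 656 FPKM, with 24 members at 10 FPKM or more, 4 at 100 FPKM or more and 30 under 2 FPKM. All 6 libraries reached 1 FPKM in 67 members. Just inside the threshold, judged by the third highest library, lay RPL28P2 (1.03 FPKM), RPL13AP20 (1.04 FPKM) and RPL8P3 (1.04 FPKM). Just outside it lay RPS15AP1 (0.972 FPKM), RPS20P22 (0.906 FPKM) and RPL7AP30 (0.903 FPKM). A total of 849 of the 1565 named genes were listed at 0 in all libraries.

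Level went with likeness to the parent. Across the 97 members, the Spearman correlation of mean FPKM with identity was 0.56, and with the share of 75-base stretches found in the parent it was also 0.56. With the parent's own level it was 0.025, and 0.048 over the 90 members without the copies of RPL7A, RPL36A and RPS18, whose own values are at or near 0. These values describe genes of the same 6 libraries, which share depth and read placement, and the genes are not independent replicates. The 23 members of 99% identity or more had a median of 10.8 FPKM, the 57 from 90% to under 99% a median of 3.17 FPKM and the 17 under 90% a median of 1.71 FPKM. RPL10P13 departed from this order, with an identity of 92.9% and a mean of 33.5 FPKM.

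**Figure D1:**
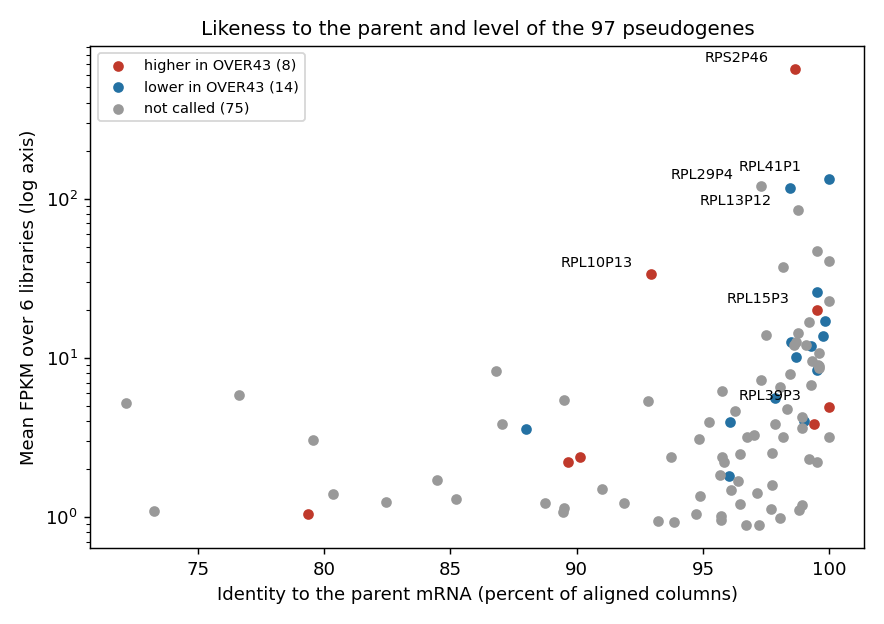
Mean FPKM over the 6 libraries (log axis) against identity to the parent mRNA over the aligned columns for the 97 pseudogenes, coloured by their call in OVER43 against EV. The 23 members of 99% identity or more have a median of 10.8 FPKM and the 17 under 90% a median of 1.71 FPKM.

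RPS2P46 stood far above all other members. It read 697, 681 and 712 FPKM in the OVER43 libraries, against 618, 616 and 608 FPKM in the EV libraries. The groups did not overlap (log2 fold change 0.18 with SE 0.025 and limma adjusted p = 0.000693), but the call rested on the scaling. After quantile scaling the log2 fold change was -0.052, and the member was not called there or with equal FPKM sums. RPS2 itself averaged 2423 ± 102 FPKM in OVER43, against 2105 ± 45.9 FPKM in EV. As a percent of RPS2 in the same library, RPS2P46 held 28.8 ± 0.591% in OVER43 and 29.2 ± 0.421% in EV, with overlapping groups (exact two-sided permutation p = 0.5).

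The 10 members of highest mean level were RPS2P46, RPL41P1, RPL29P4, RPL13P12, RPS2P5, RPL13AP5, RPS28P7, RPL26P19, RPL10P13 and RPL3P4. RPL41P1 copies RPL41, which encodes the smallest protein of the ribosome, and its annotated transcript of 81 bases equals the coding sequence. The FPKM steps of longer genes implied a length correction of 220 to 230 bases. That is more than the whole transcript, so the level of RPL41P1 is uncertain. RPL41P1 read 112, 123 and 130.2 FPKM in the OVER43 libraries, against 136, 151 and 149.8 FPKM in the EV libraries, and all OVER43 libraries were below all EV libraries (log2 fold change -0.26 with SE 0.062 and limma adjusted p = 0.00952). RPL41 fell as well, at 921 ± 49.3 FPKM in OVER43, against 1047 ± 21.8 FPKM in EV (log2 fold change -0.19 with SE 0.039 and limma adjusted p = 0.0052), and this was the only pair of 90 in which both genes fell. RPL13P12 stood at 106, 95.6 and 110.0 FPKM in the OVER43 libraries, against 125, 124 and 136 FPKM in the EV libraries (log2 fold change -0.30 with SE 0.058 and limma adjusted p = 0.00354). Its groups also stood apart, while RPL13, a large subunit protein, was not called (log2 fold change -0.051 with SE 0.042 and limma adjusted p = 0.349).

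RPL29P4, a copy of the large subunit gene RPL29, read 118, 134 and 126 FPKM in the OVER43 libraries, against 112, 116 and 117 FPKM in the EV libraries. All OVER43 libraries were above all EV libraries, and the test was missed (log2 fold change 0.13 with SE 0.049 and limma adjusted p = 0.058). RPS2P5 read 91.7, 87.1 and 101 FPKM in OVER43, against 65.5, 81.2 and 85.5 FPKM in EV and also missed it (log2 fold change 0.27 with SE 0.10 and limma adjusted p = 0.0552). Its transcript entries did not divide the signal stably. One stood at 89.1 ± 10.1 FPKM in OVER43, against 55.2 ± 31.4 FPKM in EV, and the other at 4.09 ± 4.04 FPKM in OVER43, against 22.2 ± 20.8 FPKM in EV.

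RPL13AP5, with 3 differences from RPL13A over 612 bases, stood at 45.8, 42.7 and 52.6 FPKM in OVER43, against 45.5, 45.9 and 48.5 FPKM in EV, and RPS28P7, identical to the coding sequence of RPS28, at 50.6, 31.8 and 38.7 FPKM in OVER43, against 48.6, 38.9 and 34.5 FPKM in EV. RPL26P19 stood at 34.5, 42.9 and 37.5 FPKM in OVER43, against 38.7, 33.9 and 36.1 FPKM in EV. The groups of these 3 overlapped, with limma adjusted p of 0.944, 0.937 and 0.492 in that order. RPL3P4 read 25, 24.1 and 24.4 FPKM in OVER43, against 26.6, 26.4 and 28.9 FPKM in EV with no overlap (log2 fold change -0.15 with SE 0.051 and limma adjusted p = 0.0433), and its call was lost when any of the 6 libraries was left out.

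Of the 97 pseudogenes 22 passed the test in OVER43 against EV (22.7%), 8 higher and 14 lower, by limma with Benjamini-Hochberg adjusted p under 0.05 over all 12205 genes tested. Of all genes tested 45.9% were called, 28.4% higher and 17.5% lower. The 22 include RPL39P3, which could pass the expression filter only by differing between the groups, and without it 21 of 96 were called (21.9%), 7 of them higher. With equal FPKM sums 5 members rose and 17 fell. The groups did not overlap in 27 members (27.8%), RPL39P3 among them, against 56.3% of all genes. Much of the members' expression is low. Of the 73 with a mean under 10 FPKM 5 rose and 6 fell (15.1%), against 33.4% called of all genes at that level, and of the 24 at 10 FPKM or more 3 rose and 8 fell (45.8%), against 55.1%. RPL39P3 is among the 5 that rose under 10 FPKM. The median SE of a log2 fold change was 0.16 in members under 10 FPKM and 0.081 in the others. The test was passed by 10 of the 22 under every alternative in which they were measured, with RPL39P3 among the 10.

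The median log2 fold change was 0.046 over the 97 members and 0.053 over all genes. The sign of the members' median was not stable, at 0.013 with TMM scaling, 0.12 with quantile scaling and -0.059 with equal FPKM sums. Other processed pseudogenes gave 22 higher and 20 lower of 228 tested (18.4%), with a median of 0.037. Of 5 tested ribosomal protein pseudogenes with other name forms, such as copies of RPLP0, 2 rose and 1 fell. Of the 75 members that did not pass, log2 fold changes lay between -0.85 and 0.61.

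**Figure D2:**
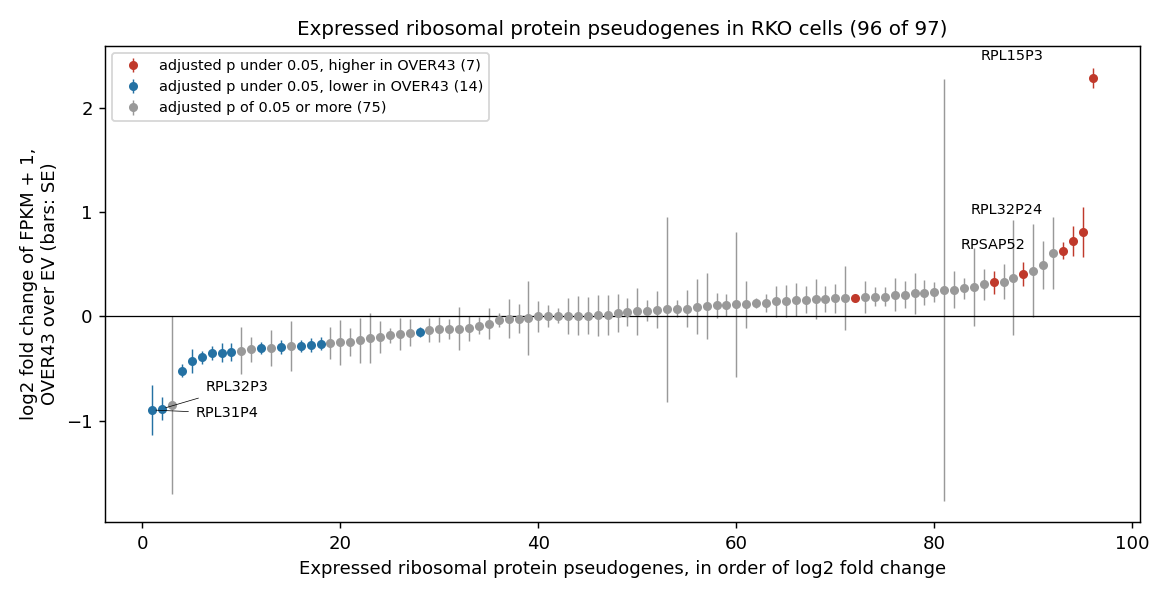
Log2 fold change of FPKM + 1, OVER43 over EV, with SE, for 96 pseudogenes in order of size, without RPL39P3, which is listed at 0 in EV. Of these 7 rose, 14 fell and 75 did not pass the test, and only RPL15P3 lies above 1.

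RPL39P3 was the only member listed at 0 in all libraries of a group. It read 9.86, 9.78 and 9.69 FPKM in the OVER43 libraries, against 0, 0 and 0 FPKM in the EV libraries. It passed the expression threshold through the OVER43 libraries alone and so had to differ, and neither a fold nor a p-value of the limma test is given for it. The authors' deposited table gave it a q-value of 0.418. The parent RPL39, which holds every stretch of 75 bases of the copy, read 1679, 1794 and 1843 FPKM in OVER43, against 1611, 1587 and 1584 FPKM in EV (log2 fold change 0.15 with SE 0.034 and limma adjusted p = 0.0073). RPL39P3 thus amounted to 0.553 ± 0.0313% of RPL39 in OVER43. Its 156 bases are fewer than the implied length correction of 220 to 230 bases, so this percent is uncertain.

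The copy lies in an intron of OOEP, a gene of oocytes, on the same strand. OOEP stood at 0.150 ± 0.0201 FPKM in OVER43, against 0.107 ± 0.0196 FPKM in EV, below the expression filter. In these files a value of 0 can be a missing estimate, since RPL36A, a ribosomal protein gene, is listed at 0 in all 6 libraries. Whether the EV value of RPL39P3 is of that kind was not tested.

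RPL15P3 read 34.6, 29.1 and 37.4 FPKM in the OVER43 libraries, against 6.66, 5.82 and 5.71 FPKM in the EV libraries. Every OVER43 library was well above every EV library, with a ratio of means of 5.56 (log2 fold change 2.29 with SE 0.10 and limma adjusted p = 2.6e-06). In the authors' deposited table it was the only member of q-value under 0.05 that was higher in OVER43 (q = 0.000547). RPL15 stood at 1182 ± 47.6 FPKM in OVER43, against 1038 ± 3.84 FPKM in EV (log2 fold change 0.19 with SE 0.031 and limma adjusted p = 0.00163). Relative to its parent the copy stood at 2.85 ± 0.252% in OVER43 and 0.584 ± 0.0499% in EV (exact two-sided permutation p = 0.1, the smallest that 10 splits of 3 against 3 allow).

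RPL15P3 has an open frame of 204 codons and stands alone in its deposited locus. Of its 75-base stretches, 67.7% occur in RPL15 and 27.9% in no other gene. Most of its signal lay on a transcript entry at 32.0 ± 4.17 FPKM in OVER43, against 5.21 ± 0.754 FPKM in EV, while the entry that spans the whole gene held 0.274 ± 0.475 FPKM in OVER43, against 0.848 ± 0.419 FPKM in EV.

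Further gains were smaller. RPL32P24, a copy of RPL32 that shares its locus with 10 other genes, read 2.19, 1.28 and 1.28 FPKM in OVER43, against 0.243, 0.193 and 1.07 FPKM in EV (log2 fold change 0.81 with SE 0.24 and limma adjusted p = 0.0251). No 75-base stretch of RPL32P24 occurs in RPL32 or in this copy alone. RPL32P24 overlaps an exon of ANKRD42 on the same strand, and which gene its reads came from was not tested. RPSAP52, a copy of RPSA, which encodes a small subunit protein also known as the laminin receptor, read 3.73, 2.53 and 2.82 FPKM in the OVER43 libraries, against 1.71, 1.42 and 1.17 FPKM in the EV libraries (log2 fold change 0.72 with SE 0.14 and limma adjusted p = 0.00425). RPL10P13, a copy of RPL10, which is needed for the joining of subunits, read 39.1, 42.9 and 40.8 FPKM in the OVER43 libraries, against 29.7, 25.4 and 23.4 FPKM in the EV libraries (log2 fold change 0.63 with SE 0.084 and limma adjusted p = 0.000559). In each of these 3 members all OVER43 libraries lay above all EV libraries. RPL32P24 lost its call without EV library 0 or 1 or OVER43 library 0 and with no filter on low values.

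RPS3P3, a copy of RPS3 in a locus shared with 22 other genes, read 2.93, 2.86 and 2.82 FPKM in OVER43, against 2.24, 2.01 and 1.53 FPKM in EV (log2 fold change 0.41 with SE 0.12 and limma adjusted p = 0.0209). RPL21P28, with 3 differences from RPL21, read 4.37, 4.38 and 4.47 FPKM in OVER43, against 3.85, 3.40 and 2.74 FPKM in EV (log2 fold change 0.33 with SE 0.11 and limma adjusted p = 0.0389). Both were without overlap, and both lost the call in several settings, with equal FPKM sums and without any one OVER43 library among them.

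Among the losses RPL31P4, a copy of RPL31, read 1.46, 1.24 and 0.286 FPKM in the OVER43 libraries, against 3.16, 2.15 and 2.50 FPKM in the EV libraries (log2 fold change -0.90 with SE 0.24 and limma adjusted p = 0.0167), a call lost without EV library 0 and with no filter on low values. RPL32P3, a transcribed copy that overlaps the small nucleolar RNA gene SNORA7B on its strand, read 2.48, 2.26 and 2.68 FPKM in the OVER43 libraries, against 5.38, 6.26 and 4.68 FPKM in the EV libraries (log2 fold change -0.89 with SE 0.11 and limma adjusted p = 0.000446). The parents RPL31 and RPL32 were not called (limma adjusted p = 0.252 for RPL31 and 0.118 for RPL32). RPL31P4 amounted to 0.0627% of RPL31 in OVER43 and 0.168% in EV, and RPL32P3 to 0.237% of RPL32 in OVER43 and 0.543% in EV.

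RPL7AP6, a copy of RPL7A with an open frame of 266 codons, read 10.5, 10.1 and 10.1 FPKM in the OVER43 libraries, against 15.7, 15.5 and 14.1 FPKM in the EV libraries (log2 fold change -0.52 with SE 0.062 and limma adjusted p = 0.000346). It was called under all alternatives, as was RPL17P7, a copy of RPL17, at 10.00, 10.7 and 9.84 FPKM in OVER43, against 13.7, 13.1 and 14.2 FPKM in EV (log2 fold change -0.39 with SE 0.064 and limma adjusted p = 0.00157). RPL23AP53, of chromosome 8 and 88.0% identity to RPL23A, read 2.85, 3.25 and 2.57 FPKM in OVER43, against 3.79, 3.99 and 4.96 FPKM in EV (log2 fold change -0.43 with SE 0.12 and limma adjusted p = 0.0168). The groups stood apart in all 3, but the call of RPL23AP53 was lost without OVER43 library 2 or EV library 2, after quantile scaling and with no filter on low values.

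Both copies of RPS27A, a gene for ubiquitin fused to a small subunit protein, fell. RPS27AP16 read 8.06, 9.35 and 8.91 FPKM in OVER43, against 11.3, 11.2 and 11.9 FPKM in EV (log2 fold change -0.35 with SE 0.071 and limma adjusted p = 0.00468) and RPS27AP5 4.61, 5.36 and 4.57 FPKM in OVER43, against 6.71, 6.0 and 6.49 FPKM in EV (log2 fold change -0.34 with SE 0.086 and limma adjusted p = 0.0126). Both copies of RPS3A, another small subunit gene, also fell, with no overlap. RPS3AP26 read 3.19, 3.37 and 3.73 FPKM in OVER43, against 4.52, 5.12 and 4.29 FPKM in EV (log2 fold change -0.35 with SE 0.10 and limma adjusted p = 0.018) and RPS3AP6, named here after its values were seen, 7.60, 7.52 and 7.35 FPKM in OVER43, against 8.82, 9.78 and 9.21 FPKM in EV (log2 fold change -0.27 with SE 0.067 and limma adjusted p = 0.0109). The call of RPS3AP26 was lost without OVER43 library 0 or EV library 1 and after quantile scaling. With no filter on low values the calls of RPS3AP26 and RPS27AP5 were lost.

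RPL7P9, a copy of RPL7 with 2 differences over 747 bases, read 13.1, 11.6 and 12.4 FPKM in the OVER43 libraries, against 15.2, 15.1 and 15.3 FPKM in the EV libraries (log2 fold change -0.28 with SE 0.061 and limma adjusted p = 0.00598). All EV libraries lay close together and above all OVER43 libraries.

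**Figure D3:**
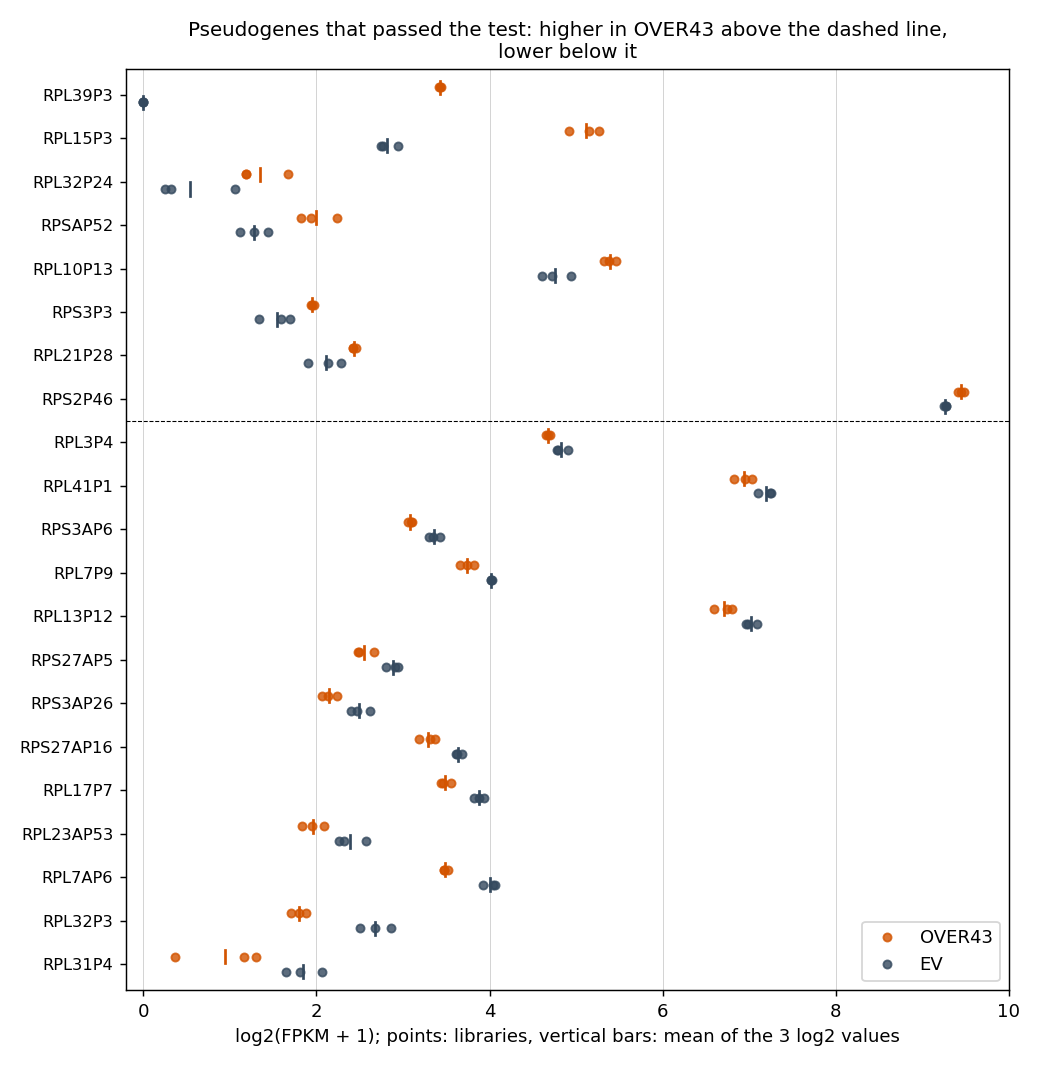
Log2(FPKM + 1) in each OVER43 and EV library for 21 of the 22 pseudogenes that passed the test, 8 higher above the dashed line and 13 lower below it. The groups do not overlap in any of them, and RPL39P3 is at 0 in the 3 EV libraries.

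The parent genes moved differently. Of 49 tested parents 38 rose and 4 fell as deposited (85.7% called, median log2 fold change 0.15), but 4 rose and 16 fell after quantile scaling and 12 rose and 15 fell with equal FPKM sums. Of the 74 tested cytosolic ribosomal protein genes 58 rose and 4 fell as deposited. Of 90 pairs with both genes tested, both rose in 7 (RPL39P3 among them), both fell in 1, the copy fell and the parent rose in 8, and in 0 did the copy rise and the parent fall. The 8 copies were RPL17P7, RPL23AP53, RPL3P4, RPL7P9, RPS27AP16, RPS27AP5, RPS3AP26 and RPS3AP6. This count was 4 with TMM scaling, 1 with quantile scaling and 4 with equal sums. The 4 parents that fell as deposited, RPL12, RPL35, RPL37A and RPL41, have 3, 3, 1 and 1 members. Few pairs could thus show a copy that rose beside a parent that fell, and the pair counts follow in part from the parents' calls. The Spearman correlation of the fold changes of copy and parent was 0.15 over the 90 pairs, of genes in the same libraries.

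A ratio within a library does not depend on a scale factor for that library. As a percent of the parent, 75 of 90 copies stood under 1% and 4 at 5% or more, with a median of 0.294%. The ratio of copy to parent did not overlap between groups in 26 pairs (28.9%), lower in OVER43 in 19 and higher in 7. RPL39P3, which had to differ, is among the 7. Of all genes 56.3% had FPKM values that did not overlap, and none of the 26 ratios can reach an exact p under 0.1. Relative to RPL7, RPL7P9 stood at 0.354 ± 0.0208% in OVER43 and 0.509 ± 0.00679% in EV. Relative to RPL17, RPL17P7 stood at 0.637 ± 0.0370% in OVER43 and 0.950 ± 0.0532% in EV, and relative to RPS27A, RPS27AP16 stood at 0.804 ± 0.0563% in OVER43 and 1.13 ± 0.0457% in EV. RPL13P12 was lower in the same way against RPL13, at 4.11 ± 0.116% in OVER43 and 4.90 ± 0.0889% in EV. Higher ratios were those of RPL10P13 to RPL10, at 23.0 ± 1.74% in OVER43 and 16.5 ± 1.47% in EV, and of RPSAP52 to RPSA, at 0.166 ± 0.0370% in OVER43 and 0.0907 ± 0.0158% in EV. RPL10 averaged 168 FPKM over the 6 libraries, beside a median of 1292 FPKM over the parents. The size of the percent of RPL10P13 thus rests on a low parent value. A ratio shows unequal change of the 2 genes and not which of them changed.

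**Figure D4:**
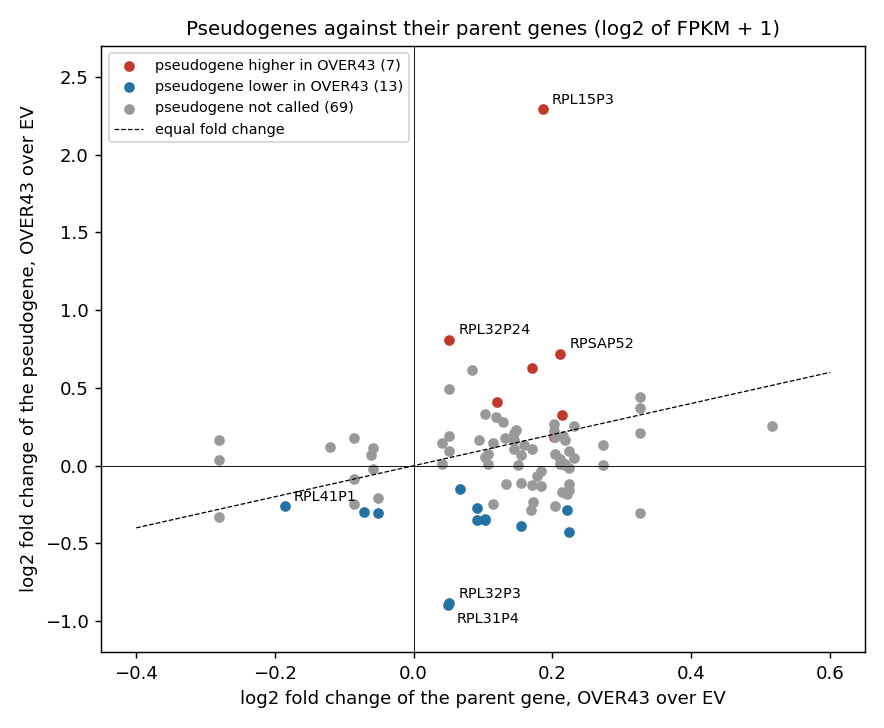
Log2 fold change of each pseudogene against that of its parent gene, OVER43 over EV, for 89 pairs with both genes tested, without RPL39P3. The dashed line marks equal change, with 57 pairs below it and 32 above. With the values as deposited 8 pseudogenes fell while the parent rose, and 4 did so with TMM scaling, 1 with quantile scaling and 4 with equal FPKM sums.

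Summed over all 97, the members held 1795, 1728 and 1836 FPKM in OVER43, against 1691, 1695 and 1679.6 FPKM in EV (exact two-sided permutation p = 0.1). The direction depended on scaling: at equal FPKM sums OVER43 minus EV was -75.3, and as a percent of all FPKM in the library the members held 0.320 ± 0.00694% in OVER43 and 0.334 ± 0.00172% in EV, without overlap. Most of the difference as deposited was RPS2P46. Without it the sums were 1089 ± 39.5 FPKM in OVER43 and 1074 ± 3.78 FPKM in EV, with overlap (exact p = 0.7). As a percent of members plus parents the members held 2.19 ± 0.032% in OVER43 and 2.25 ± 0.016% in EV, all OVER43 libraries below all EV libraries (exact p = 0.1). Of the 52 families 15 (28.8%) had shares that did not overlap, 11 lower in OVER43 and 4 higher. The RPL39 family, whose copy RPL39P3 had to differ, is among the 4. Of all genes 56.3% had FPKM values that did not overlap. The RPL10 family held the largest share of copies among those that were higher, at 21.5 ± 0.993% in OVER43 and 17.7 ± 0.930% in EV. This share also rests on the low value of RPL10, with a mean of 168 FPKM.

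In 3 families the parent gene itself was listed at or near 0, so nearly the whole family sum lay on the copies. RPL7A, a large subunit gene that every cell uses, read 0.105, 0.345 and 0.0968 FPKM in OVER43, against 0.115, 0.0514 and 0.351 FPKM in EV. RPS18, a small subunit gene, read 0.315, 0.318 and 0.460 FPKM in OVER43, against 0.403, 0.129 and 0 FPKM in EV, and RPL36A was listed at 0 throughout. A low value of these genes in the deposited table thus need not mean low expression. Whether reads of these parents were placed on their copies was not tested.

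Of the 7 copies of these parents 1 passed the test, RPL7AP6. RPL7AP39 read 1.57, 1.12 and 1.78 FPKM in OVER43, against 1.63, 1.91 and 0.937 FPKM in EV and RPL7AP62 1.11, 1.43 and 1.90 FPKM in OVER43, against 1.52, 1.32 and 1.65 FPKM in EV. The groups of both overlapped. RPL36AP37, whose 321 bases are identical to the parent's mRNA, read 23.0, 17.7 and 22.3 FPKM in OVER43, against 22.3, 30.8 and 20.3 FPKM in EV, with overlap (log2 fold change -0.20 with SE 0.16 and limma adjusted p = 0.336). RPL36AP30 is unlike it, at 84.5% identity, and read 0, 2.45 and 0 FPKM in OVER43, against 5.80, 0 and 1.98 FPKM in EV, so that 3 of its 6 values were 0. RPS18P5 read 9.55, 11.5 and 12.3 FPKM in OVER43, against 15.7, 11.8 and 14.7 FPKM in EV (log2 fold change -0.31 with SE 0.12 and limma adjusted p = 0.0651), where EV library 1 lay within the OVER43 range. RPS18P9 read 4.72, 4.61 and 3.77 FPKM in OVER43, against 3.48, 3.47 and 3.69 FPKM in EV, without overlap and short of the threshold (log2 fold change 0.23 with SE 0.10 and limma adjusted p = 0.0837).

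**Figure D5:**
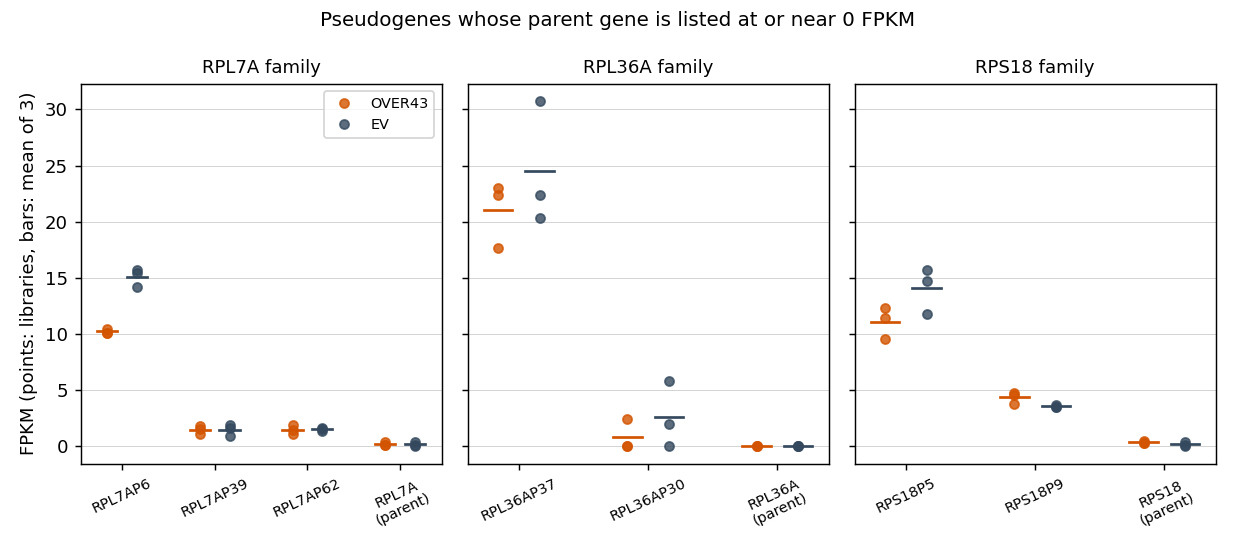
FPKM in each library of the RPL7A, RPL36A and RPS18 families, OVER43 beside EV, for 7 pseudogenes and their 3 parent genes. The parents lie at or under 0.460 FPKM while RPL7AP6, RPL36AP37 and RPS18P5 lie between 9.55 and 30.8 FPKM.

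Some members lie in a host gene that was itself tested, and 18 of the 38 tested hosts were called, beside 45.9% of all genes. Of 7 called members with a tested host 5 had a host called in the same direction, 0 in the other and 2 had a host that was not called. In all 36 members had a tested host, and 12 of those that were not called had a host that was. Which strand the reads came from is not given in the sources used here, so reads of overlapping genes cannot be told apart by strand.

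RPSAP52 overlaps HMGA2, the gene of an architectural chromatin protein, on the other strand, with an exon of HMGA2 in the overlap. HMGA2 stood at 100 ± 2.73 FPKM in OVER43, against 89.9 ± 1.76 FPKM in EV (log2 fold change 0.15 at a limma adjusted p of 0.00867). That call was lost after quantile scaling (log2 fold change -0.044) and with equal FPKM sums (0.0092), while the calls of the other 4 called hosts held under both.

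RPL21P28 lies in an intron of DTL, on the other strand. DTL recruits substrates to a ubiquitin ligase and stood at 29 ± 1.22 FPKM in OVER43, against 23.5 ± 0.672 FPKM in EV (log2 fold change 0.29 at a limma adjusted p of 0.00223). RPS3AP26 lies in an intron of BAIAP2L1, an adaptor of membrane and actin, at 18.4 ± 1.45 FPKM in OVER43, against 21.2 ± 0.815 FPKM in EV (log2 fold change -0.20 at a limma adjusted p of 0.0394). RPL10P13 lies in an intron of the long noncoding RNA AC078923.1, at 20.4 ± 1.56 FPKM in OVER43, against 15.6 ± 0.811 FPKM in EV (log2 fold change 0.37 at a limma adjusted p of 0.00348). The hosts of RPL17P7 (WDR47) and RPL32P24 (ANKRD42) were not called, with limma adjusted p of 0.267 and 0.151.

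On chromosome 14 the called members fell where most other genes were higher. The other 426 tested genes of the chromosome had a median log2 fold change of 0.44, against 0.053 over all genes. Of its 5 members 0 rose and 3 fell (RPL31P4, RPL3P4 and RPL7AP6), with a median of -0.25. Of all genes tested 28.4% were called higher and 17.5% lower. The call of RPL31P4 was lost without EV library 0, and that of RPL3P4 when any of the 6 libraries was left out. Both were lost with no filter on low values. The other 2 members of the chromosome, RPL22P2 and RPL32P29, named after their values were seen, had log2 fold changes of -0.25 and 0.49 (limma adjusted p = 0.384 and 0.119). RPL32P29 overlaps an exon of RPS29 on the same strand. No 75-base stretch of RPL32P29 occurs in RPL32 or in this copy alone. As deposited RPS29 rose (log2 fold change 0.52 with SE 0.030 and limma adjusted p = 1.06e-05). Which gene the reads of RPL32P29 came from was not tested. On chromosome 9, where the other genes had a median of -0.20, the 1 member was not called.

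By likeness, of the 23 members of 99% identity or more 3 rose and 6 fell (39.1%), of the 57 from 90% to under 99% 3 rose and 7 fell (17.5%), and of the 17 under 90% 2 rose and 1 fell (17.6%). Of all genes 55.1% were called at a mean of 10 FPKM or more and 33.4% below it, and no difference between these groups of members was tested. The 3 of lowest identity that passed were RPL32P24, RPL23AP53 and RPSAP52. Members with an open frame gave 3 higher and 7 lower of 26, at a median level of 8.50 FPKM, and those with an interrupted frame 4 higher and 1 lower of 26, at a median of 2.39 FPKM. RPL39P3, which had to differ, is among the 3 that rose at 99% identity or more and the 3 higher of open frame. Level was also higher in the members of high identity and of open frame, and its part in the counts was not tested.

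In the authors' deposited table, 7 members had a q-value under 0.05, 1 higher in OVER43 and 6 lower, and all 7 were among the 22 called by limma. Of the 15897 genes whose test is marked OK in the authors' deposited table, 21.3% had such a q-value. The 6 lower ones were RPL13P12, RPL31P4, RPL32P3, RPL7AP6, RPL7P9 and RPS27AP16 in the authors' deposited table, with q-values from 0.000547 to 0.0476.

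Near the expression threshold the libraries of a group lay far apart. RPL28P2, a copy of RPL28 at 73.3% identity, read 0.831, 1.03 and 0.698 FPKM in OVER43, against 1.93, 1.56 and 0.520 FPKM in EV. RPL13AP20 read 0.420, 1.14 and 1.18 FPKM in OVER43, against 0.845, 1.04 and 0.715 FPKM in EV and RPL8P3, a copy of RPL8, 1.04, 0.971 and 1.11 FPKM in OVER43, against 1.22, 0.631 and 0.727 FPKM in EV. Libraries of 1 group differed by up to a few times in these members, and the groups overlapped. Of the 7 members with a value of 0 in at least 1 library, 5 have transcripts under 300 bases, and 1 of them, RPL39P3, passed the test. The least precise of the 97, RPS29P5, had an SE of 2.02 on the log2 scale.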

How the data were processed

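Poly(A) RNA of 3 OVER43 and 3 EV samples of RKO cells was measured with Illumina TruSeq libraries, per the labels' protocols. Per the submitters' processing notes the authors used Cuffdiff, whose version is not given in the sources used here. They deposited tables of genes and isoforms with an FPKM value for each library. The authors' deposited log2 fold change runs EV over OVER43. The deposited tables also hold the authors' test score and their p-values and q-values. The sources used here name no aligner, annotation or strand. No estimate was given for 19 genes, which were left out.

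The columns bear numbers 0 to 2 while the labels count replicates 1 to 3, so each column was used only as a library of its group. Genes of at least 1 FPKM in at least 3 of 6 libraries (12205) were tested two-sided with limma 3.58.1 in R 4.3.3, using its trend and robust settings. The values were log2(FPKM + 1), where the pseudocount of 1 understates the change of low genes, and p-values were Benjamini-Hochberg adjusted over all genes tested. The member rule holds this same filter. In simulated data for this comparison (12205 genes, 200 of them changed) 56% of changes of size 0.5 and 85% of size 1 (log2) were recovered, beside 3 false calls. Single values per library were compared by exact permutation (SciPy 1.17.1).

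Member transcripts of GENCODE 29 were aligned to the parent's longest coding transcript with Biopython 1.88 (match 2, mismatch -3, gap opening -5, gap extension -2). The notes name hg38, but only 9 of 97 deposited member loci overlap the GRCh38 position of the gene, so no deposited coordinate is printed. Depth came from 256 to 284 low values per library (under 10 fragments), of which 96.8% to 99.6% lay within 0.1 of a whole fragment number, in the units that the deposited FPKM imply.

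The members named are the 10 of highest level; the 8 largest called changes in each direction without overlap; those at 0 throughout a group; those whose parent is under 1 FPKM; the 6 widest opposite pairs; and 3 on each side of the threshold. Members, lists and this rule were chosen with earlier results of these data known. The alternatives comprised 3 scalings (an own TMM, quantile, equal FPKM sums), other filters (none, at least 5 FPKM), a pseudocount of 0.1, the column number as a block, each library left out, and the best-matching parent transcript. Of the members that passed the test, 1 is counted but not reported by name here.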

Additional observations from a re-analysis of the deposited data

How the results depend on the processing

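The calls of 10 of the 22 members passed the test under every alternative in which they were tested. RPL39P3, which had to differ, is among these 10. With no filter on low values, where 31562 genes were tested, 11 calls were lost. They include those of RPL13P12, RPL41P1, RPS27AP5, RPL3P4, RPL21P28, RPS3P3, RPL23AP53, RPL31P4, RPL32P24 and RPS3AP26. Among members 7 rose and 16 fell with TMM, 8 and 12 with quantile scaling, 5 and 17 with equal FPKM sums, and 5 and 6 with no filter, against 8 and 14. Leaving out a library gave 6 to 9 higher and 12 to 14 lower. The members' median log2 fold change was 0.013 with TMM, 0.12 with quantile and -0.059 with equal-sum scaling, -0.021 with at least 5 FPKM, and -0.040 to 0.063 with a library left out, against 0.046. It was negative without OVER43 library 2 (-0.0022) and without EV library 2 (-0.040).

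The parents that rose numbered 4 after quantile scaling and 12 at equal sums, against 38. Those that fell numbered 7 by TMM, 16 after quantile scaling, 15 at equal sums and 1 with no filter, against 4, and 2 to 6 with a library left out. The parents' median was 0.093 by TMM, -0.023 after quantile scaling and 0.0017 at equal sums, and 0.12 to 0.15 with a library left out, against 0.15. Copies that fell while the parent rose numbered 4 by TMM, 1 after quantile scaling, 4 at equal sums and 4 with no filter, against 8, and 6 to 9 with a library left out. The members' summed FPKM, OVER43 minus EV, was -75.3 at equal sums, against 97.9, and 72.9 to 127 with a library left out. Of all genes 1870 rose and 3567 fell at equal sums, 2838 and 2556 by TMM and 2557 and 2434 after quantile scaling, against 3462 and 2138. The cause of these moves was not tested.

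With column number as a replicate block 10 members rose and 13 fell, and 20 of the 22 calls were shared. Deviations of same-numbered libraries correlated at 0.017, -0.091 and 0.029. These values show no shared deviation by number, but they cannot exclude that same-numbered libraries were prepared together. The median identity was 97.7% with the best parent transcript. A filter on the mean over 6 libraries, chosen after seeing the data, left 91 members, 8 higher and 14 lower.

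The sign of the log2 fold change turned in these genes. Under TMM scaling it was -0.011 for RPL13AP20, -0.043 for RPL13AP5, -0.021 for RPL7AP39, -0.0027 for RPL31, -0.00013 for RPL32 and -0.011 for RPL8. Under quantile scaling it was -0.11 for RPL13AP5, -0.020 for RPL26P19, -0.058 for RPL29P4, 0.073 for RPL7AP62, -0.052 for RPS2P46, -0.021 for RPL10, -0.010 for RPL15, -0.014 for RPL28, -0.026 for RPL29, -0.023 for RPL3, -0.089 for RPL31, -0.15 for RPL32, -0.0054 for RPL39, -0.11 for RPL7, -0.21 for RPL8, -0.093 for RPS27A and -0.11 for RPS3A. Under equal FPKM sums it was -0.054 for RPL13AP20, -0.13 for RPL13AP5, -0.065 for RPL26P19, -0.012 for RPL29P4, -0.075 for RPL7AP39, -0.037 for RPL26, -0.077 for RPL3, -0.094 for RPL31, -0.092 for RPL32, -0.10 for RPL8, -0.040 for RPS27A, -0.023 for RPS3 and -0.053 for RPS3A. Under a pseudocount of 0.1 it was -0.029 for RPL13AP20. With each library left out in turn it ran -0.094 to 0.21 for RPL13AP20, -0.074 to 0.073 for RPL13AP5, -0.0083 to 0.15 for RPL26P19, -0.16 to 0.13 for RPL7AP39, -0.14 to 0.091 for RPL7AP62 and -0.19 to 0.13 for RPS28P7.

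Depth bears most on the low members. Over 600 bases 1 FPKM is worth 16 to 19.5 fragments, and it is worth fewer in shorter transcripts. The median member transcript has 497 bases. RPL31P4 has 376 bases and read 0.286 FPKM in its lowest OVER43 library, and RPL32P24 has 400 bases and read 0.193 FPKM in its lowest EV library.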
